A study of Homo sapiens with 16 samples.

Results

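The genes described are 9 transcription factors of the adrenergic identity of sympathetic neuroblasts, PHOX2A, HAND1, HAND2, GATA2, GATA3, ISL1, TBX2, TBX3 and TFAP2B, taken by symbol from a list of sympathoadrenal regulators. All 9 were among the 27037 genes of the count table and among the 15415 genes that passed the filter on low counts. They were measured by RNA sequencing of polyadenylated RNA from SK-N-BE(2)C, a clonal, MYCN-amplified human neuroblastoma line of the adrenergic type, so that all 16 samples come from a single clone. The groups, of 4 replicates each, were DMSO (the vehicle), RA (10 µM retinoic acid), PB (1 µM palbociclib, which blocks the kinases CDK4 and CDK6 that drive cell-cycle entry) and PB+RA (both agents at those doses). The comparisons ask how CDK4/6 inhibition and the retinoid, alone and together, change the transcripts of the factors that hold the cells in the adrenergic state.

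These factors belong to a circuit whose members bind enhancers of one another, and of genes for catecholamine synthesis. In the embryo they are switched on in neural crest cells that settle beside the dorsal aorta, and they direct those cells to become sympathetic neurons and adrenal chromaffin cells. Adrenergic neuroblastoma keeps the circuit running, whereas neuroblastoma cells of the mesenchymal type express little of it. RA acts through nuclear receptors and is used as a differentiating agent in this tumour.

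Samples held 19.5 to 31.6 M counts. Levels are given as CPM (the count scaled to the sample's total) with the SD over 4 replicates, and changes as log2 fold changes with their standard error (SE) from a single edgeR fit of all genes. A gene was called, and is said to rise or fall, at an adjusted p below 0.05 and a log2 fold change of more than 0.5 in size. The 8 adrenergic-type markers, 3 of which are among the 9 factors, were all present, with a summed level of 4670 to 5419 CPM in DMSO, 4468 to 5982 CPM in RA, 8784 to 9788 CPM in PB and 7177 to 10914 CPM in PB+RA. With PB the mean of CHGA went from 1706 to 3875 CPM and that of CHGB from 460 to 2061 CPM. TH, DBH and GATA3 also rose with PB, whereas DDC, PHOX2A and HAND2 were not called. The 10 mesenchymal-type markers measured, with PRRX2 under 1 CPM in every sample, summed to 1128 to 1389 CPM in DMSO, 1909 to 2372 CPM in RA, 956 to 1112 CPM in PB and 1167 to 1614 CPM in PB+RA. The Schwann cell marker SOX10 was under 1 CPM in every sample. The part of these marker changes in the results for the 9 factors was not tested, and in bulk RNA fewer cells of a type and less RNA per cell cannot be told apart.

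Levels of different genes were compared roughly, per kilobase of merged exon over all annotated transcripts of a gene. By this measure PHOX2A was the most abundant of the 9 in DMSO, at 494 ± 27.3 CPM per kb. It lay above 99.8% of the 14837 genes with a known length. HAND2, HAND1 and GATA2 followed at 219 ± 7.88, 201 ± 23.7 and 193 ± 16.8 CPM per kb, and their ranges overlapped from neighbour to neighbour. TBX2 stood lower, at 69.1 ± 13.6 CPM per kb, with its lowest sample above the highest of TBX3. The 4 least abundant were TBX3 (37.7 ± 4.45 CPM per kb), GATA3 (31.5 ± 7.32), ISL1 (25.2 ± 4.14) and TFAP2B (21.3 ± 3.16), again with overlapping neighbours, and TFAP2B still lay above 83.6% of genes. The order of the per kb means shifted with treatment. HAND1 went from rank 3 in DMSO to rank 5 in RA and rank 6 in PB+RA, while TBX2 and TBX3 took ranks 4 and 5 in PB+RA. GATA3 was the least abundant of the 9 in RA and ISL1 in PB+RA.

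**Figure D1:**
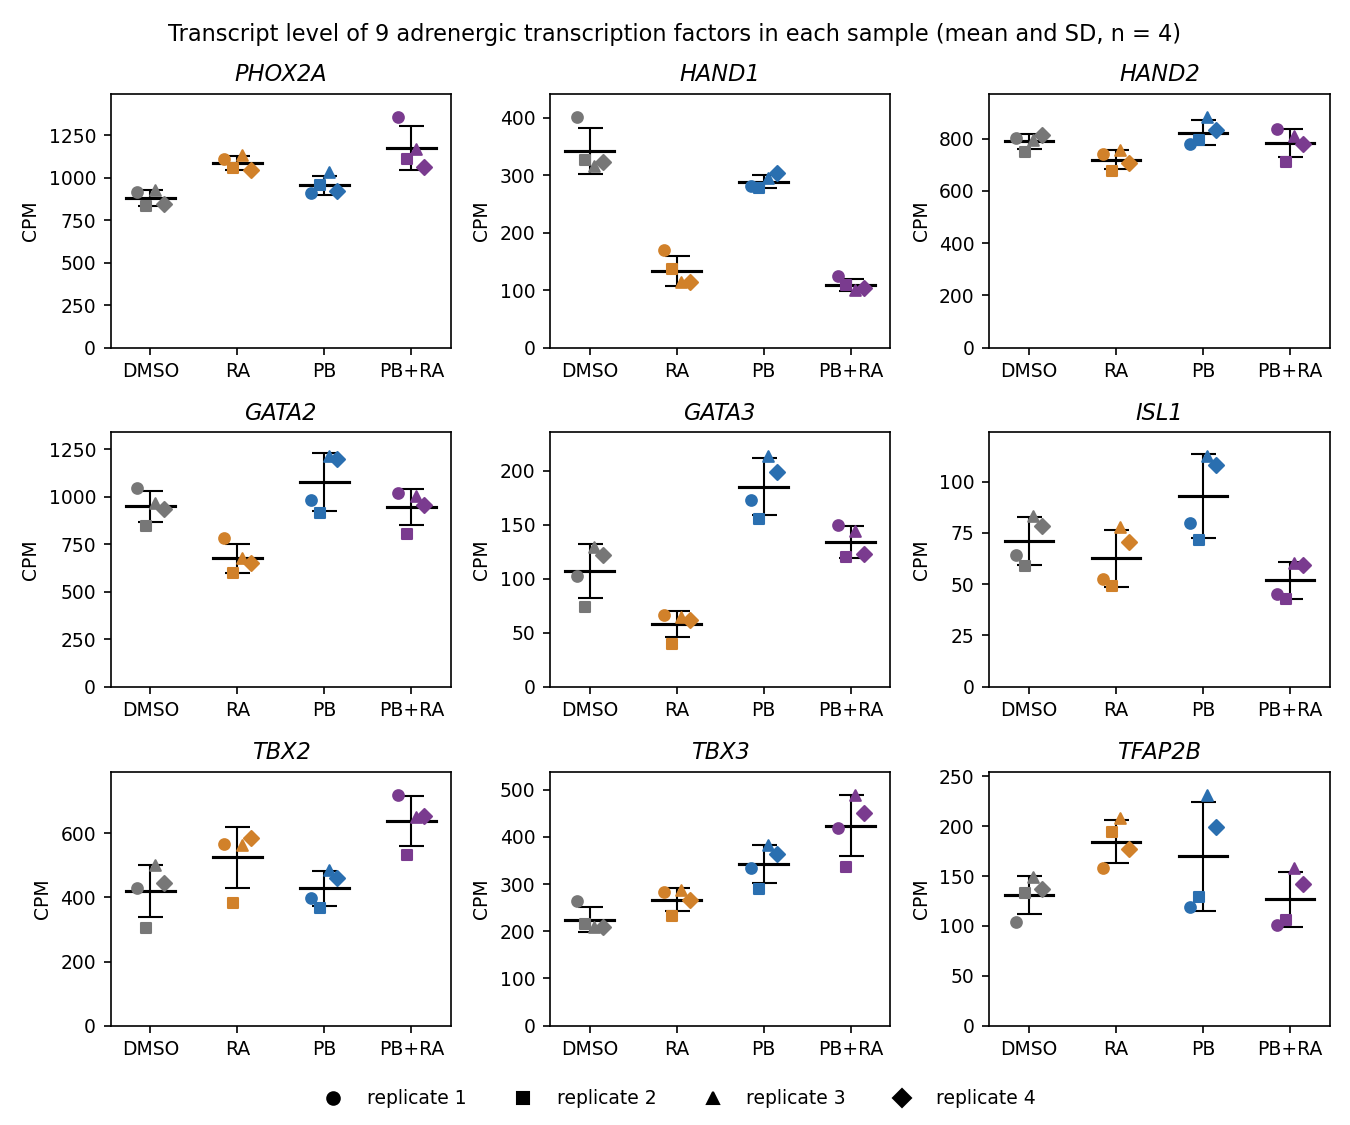
CPM (vertical axes, from 0) of the 9 factors in DMSO, RA, PB and PB+RA, with a point per sample shaped by replicate number, a line at the mean and bars of 1 SD. HAND1 drops to 100.2 to 169.9 CPM in the RA and PB+RA samples, while HAND2 stays between 677 and 885 CPM in all 16.

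PB raised 2 of the 9, GATA3 and TBX3, and lowered 0, where 28.2% of all tested genes were called (16.9% as rises and 11.3% as falls). RA lowered 2, HAND1 and GATA3, and raised 0, where 13.3% of all genes were called, 10.8% as rises and 2.54% as falls. Among all genes 1661 rose and 392 fell with RA, so the falls of HAND1 and GATA3 were in the less common direction of called changes. After a correction for GC content and length the counts were 1328 and 791, and the median of all genes moved from 0.01 to -0.09. With no fold minimum the imbalance was smaller, as 2893 genes passed the adjusted p above 0 and 2527 below 0. PB+RA raised TBX2 and TBX3 and lowered HAND1, where 41.9% of all genes were called (24.0% as rises and 17.9% as falls). The median absolute log2 fold change of the 9 was 0.24 with PB, 0.31 with RA and 0.39 with PB+RA, against 0.33, 0.21 and 0.45 over all tested genes. The share of the 9 called was thus below the share over all genes with PB and PB+RA (2 and 3 of 9) and above it with RA (2 of 9), with so few members that neither is a result about the list. CPM ranges did not overlap with DMSO for 3 of the 9 with PB, 5 with RA and 4 with PB+RA, where 49.9%, 37.2% and 58.2% of all genes did not.

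Adding RA to PB (PB+RA against PB) raised TBX2 and lowered HAND1 and ISL1, where 16.3% of all genes were called (9.02% as rises and 7.27% as falls). Adding PB to RA (PB+RA against RA) raised GATA3 and TBX3 and lowered TFAP2B, where 29.0% were called (14.9% as rises and 14.1% as falls). CPM ranges did not overlap for 5 of the 9 in the former comparison and 3 in the latter, where 31.4% and 46.7% of all genes did not. PHOX2A, HAND2 and GATA2, which are among the 4 most abundant of the 9 per kb in DMSO, were called in 0 of the 5 comparisons. PHOX2A passed the adjusted p alone in 3 of them, GATA2 in 2 and HAND2 in 0. The adjusted p alone was passed by 2 of the 9 factors with PB (53.6% of all genes), 4 with RA (35.2%), 5 with PB+RA (66.1%), 5 in PB+RA against PB (38.1%) and 5 in PB+RA against RA (54.4%).

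**Figure D2:**
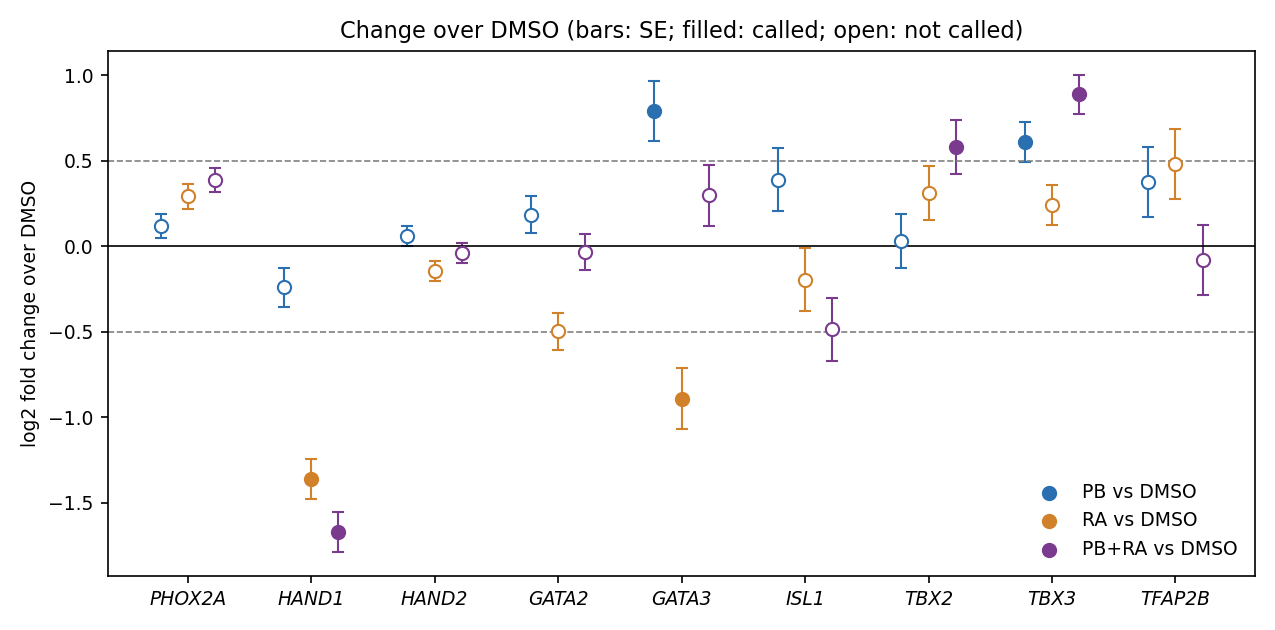
Log2 fold change over DMSO (vertical axis) of the 9 factors with PB, RA and PB+RA, with bars of 1 SE, filled points for called changes and dashed lines at the fold minimum of 0.5. HAND1 has the largest change, -1.36 with RA and -1.67 with PB+RA, and GATA3 moves up with PB and down with RA.

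HAND1 and HAND2 are basic helix-loop-helix (bHLH) factors that pair with E proteins, and HAND2 is required for the noradrenergic differentiation of sympathetic neurons. HAND1 (chr5:153854532-153857787, GRCh37, as all positions here) had 402, 327, 315 and 324 CPM in DMSO replicates 1 to 4 and 169.9, 137, 114 and 115 CPM in RA. It had 281, 278, 295 and 303 CPM in PB and 124, 109.9, 100.2 and 104 CPM in PB+RA. Every RA and PB+RA sample lay below every DMSO and PB sample. RA lowered HAND1 from 342 ± 40.4 to 134 ± 26.2 CPM (log2 fold change -1.36 ± 0.12, adjusted p = 6.05e-07), and it stood lowest in PB+RA, at 109.5 ± 10.4 CPM (a fall from DMSO with log2 fold change -1.67 ± 0.12, adjusted p = 3.69e-09). With PB already present, RA also lowered it (-1.43 ± 0.12, adjusted p = 2.24e-07), and the difference between these RA effects was -0.07 ± 0.16 (adjusted p = 0.89). PB alone gave -0.24 ± 0.11 (adjusted p = 0.087), lower in 4 of 4 same-numbered pairs. PB+RA against RA gave -0.31 ± 0.12 (adjusted p = 0.0327), below the fold minimum and also lower in 4 of 4 pairs.

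HAND2 (chr4:174446120-174451380) had 803, 749, 796 and 813 CPM in DMSO and 740.3, 677, 756 and 707 CPM in RA. It had 779, 794, 885 and 833 CPM in PB and 838, 713, 809 and 778 CPM in PB+RA. The groups overlapped with each other except PB with RA, whose samples all lay lower. Its log2 fold changes were 0.06 ± 0.06 with PB, -0.14 ± 0.06 with RA (95% interval -0.26 to -0.03) and -0.04 ± 0.06 with PB+RA, of which the change with RA had the lowest adjusted p (0.0673) and was negative in 4 of 4 pairs. HAND1 thus made up 47.7% ± 2.74 of the summed per kb level of both HAND genes in DMSO, 42.7% ± 0.977 in PB, 28.1% ± 3.93 in RA and 22.8% ± 1.73 in PB+RA (SD, n = 4). The antisense RNA HAND2-AS1, which lies on the opposite strand and shares 867 of the 3601 exon bases of HAND2, rose with PB from 240.1 to 438 CPM, a log2 fold change of 0.87 ± 0.06 (adjusted p = 1.43e-08), and with PB+RA by 0.82 ± 0.06 (adjusted p = 7.83e-09), but was at -0.05 ± 0.06 (adjusted p = 0.559) with RA. The strand used for counting was not stated, so the counts of HAND2 and HAND2-AS1 may share reads.

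The 250 bases before the RefSeq start of each HAND gene are shown because the paralogs parted under RA. They were taken from the RefSeq table of GRCh38.p14 and found at a single place in GRCh37, the assembly of the files (hg19), at chr5:153857788-153858037 for HAND1 and chr4:174451381-174451630 for HAND2, both read on the minus strand. Capitals mark matches, on either strand, to CANNTG (the E-box of bHLH factors), AGATAA and its second form TGATAA (bound by GATA factors), TAATTA (homeodomain factors), the palindromic paired-type homeodomain motif, GGTGTGA (T-box factors), GCCNNNGGC (AP-2 factors) and AGGTCA (the core of a retinoid receptor site).
HAND1: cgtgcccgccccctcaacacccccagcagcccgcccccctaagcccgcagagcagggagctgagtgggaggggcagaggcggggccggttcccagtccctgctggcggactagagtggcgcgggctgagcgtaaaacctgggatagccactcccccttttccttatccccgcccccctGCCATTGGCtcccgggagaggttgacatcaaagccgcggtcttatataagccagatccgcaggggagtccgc
HAND2: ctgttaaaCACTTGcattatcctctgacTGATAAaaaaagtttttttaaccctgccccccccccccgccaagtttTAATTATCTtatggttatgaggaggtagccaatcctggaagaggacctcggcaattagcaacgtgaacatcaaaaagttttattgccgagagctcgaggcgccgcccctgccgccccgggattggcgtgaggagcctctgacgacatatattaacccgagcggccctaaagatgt
The HAND1 window held only the AP-2 match, GCCATTGGC, 72 to 64 bases before the start, where 19.8% of 35116 promoters hold one. The HAND2 window held an E-box (CACTTG) 242 to 237 bases before the start, TGATAA at 222 to 217, TAATTA at 175 to 170 and, on the other strand and overlapping it, AGATAA at 172 to 167. Of all promoters 61.8% hold an E-box, 6.66% TGATAA, 9.17% AGATAA and 4.35% TAATTA. Neither window held AGGTCA, which 12.1% of promoters hold.

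GATA2 and GATA3 are zinc-finger factors, and GATA3 is needed for the survival and the catecholamine synthesis of sympathetic neurons. GATA3 (chr10:8087341-8117161) had 103, 74.0, 129.5 and 122 CPM in DMSO and 66.8, 39.8, 64.2 and 61.6 CPM in RA. It had 173, 155, 214 and 199 CPM in PB and 149, 121, 144 and 123 CPM in PB+RA. Every PB sample lay above every sample of the other groups and every RA sample below, while DMSO and PB+RA overlapped. PB raised GATA3 from 107 ± 24.9 to 185 ± 26.3 CPM (0.79 ± 0.18, adjusted p = 0.00152) and under RA the level fell to 58.1 ± 12.4 CPM (-0.89 ± 0.18, adjusted p = 0.00152). In PB+RA it stood at 134 ± 14.6 CPM, 0.30 ± 0.18 over DMSO (adjusted p = 0.152). Adding PB to RA raised it by 1.19 ± 0.18 (adjusted p = 5.27e-05), higher in 4 of 4 pairs, and adding RA to PB gave -0.49 ± 0.18 (adjusted p = 0.0388), lower in 4 of 4 pairs and just under the fold minimum. The interaction, which is the change with RA in the presence of PB minus that in its absence, was 0.40 ± 0.25 (adjusted p = 0.461). Within replicates 1 and 2 alone neither call was made, PB giving 0.88 (adjusted p = 0.0628) while RA gave -0.74 (adjusted p = 0.155), whereas both were made within replicates 3 and 4 (0.67 and -1.05).

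GATA3-AS1, transcribed from the opposite strand, shares no exon bases with GATA3 in the annotation used. Its log2 fold change was 0.87 ± 0.19 (adjusted p = 0.00101) with PB, a rise, and -0.81 ± 0.19 (adjusted p = 0.00452) with RA, a fall. With PB+RA it rose by 0.84 ± 0.19 (adjusted p = 0.000881), where GATA3 itself was not called.

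GATA2 (chr3:128198270-128212044) had 1048, 847, 965 and 937 CPM in DMSO and 780.1, 599.5, 677 and 650.4 CPM in RA. It had 980.3, 912, 1216 and 1200.4 CPM in PB and 1017, 805, 1004 and 956 CPM in PB+RA. The RA samples lay below all others and the other 3 groups overlapped. Its mean was 949 ± 82.5 CPM in DMSO and 677 ± 76.0 CPM in RA, a log2 fold change of -0.50 ± 0.11 (adjusted p = 0.00229) that lies just short of the fold minimum in size. It was called with RLE scaling (-0.52), after the GC and length correction (-0.63), by DESeq2 (-0.52) and by limma-voom (-0.50), and without DMSO replicate 2 (-0.55), DMSO replicate 4 (-0.51) or RA replicate 1 (-0.58). PB+RA against RA gave 0.46 ± 0.11 (adjusted p = 0.00179), higher in 4 of 4 pairs, and PB+RA against DMSO gave -0.03 ± 0.11 (adjusted p = 0.801). GATA3 made up 13.9% ± 2.52 of the per kb level of both GATA genes in DMSO, 11.0% ± 1.55 in RA, 19.9% ± 0.452 with PB and 17.1% ± 0.944 with both agents.

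Of the promoter windows of 7 factors given in the RefSeq table, the one of GATA2 at chr3:128212045-128212294 (minus strand, GRCh37) alone held AGGTCA, and it is shown for that. GATA2 had 2 windows, GATA3 had 6 and each other factor had 1, and 12.1% of all promoters hold AGGTCA. A single match among these windows is thus not read as a trait of GATA2, and a link to its change with RA was not tested.
GATA2: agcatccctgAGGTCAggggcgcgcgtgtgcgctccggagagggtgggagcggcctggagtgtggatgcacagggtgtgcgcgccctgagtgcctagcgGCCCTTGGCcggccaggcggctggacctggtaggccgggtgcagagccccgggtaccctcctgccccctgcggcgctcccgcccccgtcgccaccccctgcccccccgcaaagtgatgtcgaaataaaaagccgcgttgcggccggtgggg
AGGTCA lies 240 to 235 bases before the start and an AP-2 match, GCCCTTGGC, at 151 to 143. AGGTCA spaced as a direct repeat by 2 or 5 bases was found in 0 of the windows of the 7 factors and in 0.00285% of all promoters for either spacing.

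PHOX2A (chr11:71950121-71956708), a homeodomain factor that activates the gene of dopamine beta-hydroxylase, had 916, 836, 930.4 and 843 CPM in DMSO and 1108, 1055, 1132 and 1045 CPM in RA. It had 909.8, 954, 1035 and 924 CPM in PB and 1359.7, 1109, 1171 and 1062 CPM in PB+RA. The RA and PB+RA samples lay above all DMSO and PB samples. The increase was small in each setting, 0.29 ± 0.07 with RA (adjusted p = 0.00505), 0.39 ± 0.07 with PB+RA (adjusted p = 0.000159) and 0.27 ± 0.07 for PB+RA over PB (adjusted p = 0.00747), with 4 of 4 pairs higher in each, and it did not reach the fold minimum. PB gave 0.12 ± 0.07 (adjusted p = 0.176) and the interaction was -0.02 ± 0.10 (adjusted p = 0.95).

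ISL1 (chr5:50679282-50690564) is a LIM-homeodomain factor of sympathetic, sensory and motor neurons that works with LDB cofactors. It had 64.0, 58.6, 83.3 and 78.5 CPM in DMSO and 52.7, 49.2, 77.7 and 70.5 CPM in RA. It had 79.8, 71.3, 113 and 108 CPM in PB and 45.2, 42.9, 60.1 and 59.1 CPM in PB+RA. Replicates 3 and 4 lay above replicates 1 and 2 in all 4 groups, by a log2 of 0.40 to 0.55, so the groups overlapped except PB with PB+RA, although the pairs of the same number moved together. PB was higher than DMSO in 4 of 4 pairs (0.39 ± 0.18, adjusted p = 0.086), RA lower in 4 of 4 (-0.19 ± 0.18, adjusted p = 0.442) and PB+RA lower in 4 of 4 (-0.49 ± 0.18, adjusted p = 0.0302), and none of these was called. Adding RA to PB lowered ISL1 from 93.0 ± 20.5 to 51.8 ± 9.05 CPM (-0.88 ± 0.19, adjusted p = 0.0018). PB thus went with a higher level without RA and, against RA alone, with a lower level in 4 of 4 pairs (-0.29 ± 0.19, adjusted p = 0.198). The interaction was -0.68 ± 0.26 (adjusted p = 0.165) and was called with the replicate number as a block (-0.66 ± 0.065, adjusted p = 1.02e-06), as also within replicates 1 and 2 (-0.51) and within replicates 3 and 4 (-0.74). The PB+RA change over DMSO was called with RLE scaling (-0.51) and by DESeq2 (-0.50), and when any of DMSO replicates 1 and 2 or PB+RA replicates 3 and 4 was left out (-0.57 to -0.53).

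The promoter of ISL1 at chr5:50679032-50679281 (plus strand, GRCh37) is shown because it held matches to sites for other members of the circuit.
ISL1: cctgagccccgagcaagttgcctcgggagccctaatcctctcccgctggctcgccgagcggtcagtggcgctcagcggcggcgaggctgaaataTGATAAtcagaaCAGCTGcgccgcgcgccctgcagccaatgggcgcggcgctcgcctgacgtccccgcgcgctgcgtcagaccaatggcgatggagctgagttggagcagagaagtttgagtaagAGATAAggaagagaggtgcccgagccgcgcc
It held TGATAA 156 to 151 bases before the start, an E-box (CAGCTG) at 144 to 139 and AGATAA at 31 to 26. HAND2 and ISL1 were the only ones of the 7 factors whose windows held AGATAA or TGATAA, which 9.17% and 6.66% of all promoters hold. Matches to sites for members of the circuit were not confined to these windows. The 2 windows of GATA2 held 3 E-boxes and 3 AP-2 matches, and the 6 windows of GATA3 held 3 of each. Of all promoters, 61.8% hold an E-box and 19.8% an AP-2 match. The windows of PHOX2A and TFAP2B held 0 of the motifs searched.

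TFAP2B (chr6:50786436-50815332) encodes AP-2 beta, which acts in neural crest and sympathetic neuron development. It had 104, 134, 149.5 and 137 CPM in DMSO and 158, 195, 208 and 177 CPM in RA. It had 119, 129, 232 and 199 CPM in PB and 101, 106, 158 and 142 CPM in PB+RA. All RA samples lay above all DMSO samples, and in PB replicates 3 and 4 lay far above replicates 1 and 2. RA went with a higher level without PB (0.48 ± 0.21, adjusted p = 0.0813, 4 of 4 pairs higher) and with a lower one in its presence (-0.46 ± 0.21, adjusted p = 0.0968, 4 of 4 pairs lower), neither of them called. The difference between these changes was -0.94 ± 0.29 (adjusted p = 0.0818). The call was made in the edgeR fit blocked by replicate number (-0.93 ± 0.17, adjusted p = 0.00244), by DESeq2 (-0.91, adjusted p = 0.0196) and without PB replicate 1 (-1.08, adjusted p = 0.0352). Within replicates 1 and 2 it was -0.83 (adjusted p = 0.0612) and within replicates 3 and 4 -0.92 (adjusted p = 0.0146). PB+RA against RA lowered TFAP2B from 184 ± 21.8 to 127 ± 27.7 CPM (-0.56 ± 0.21, adjusted p = 0.0313), a call lost without RA replicate 2 (-0.54) or 3 (-0.50) or PB+RA replicate 1 (-0.48) or 2 (-0.50), with no filter on low counts (-0.55, adjusted p = 0.0874), with apeglm shrinkage (-0.49) and within replicates 3 and 4 (-0.37). Without PB replicate 1 the change with PB over DMSO (0.52) and that of PB+RA over PB (-0.60) were called as well.

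**Figure D3:**
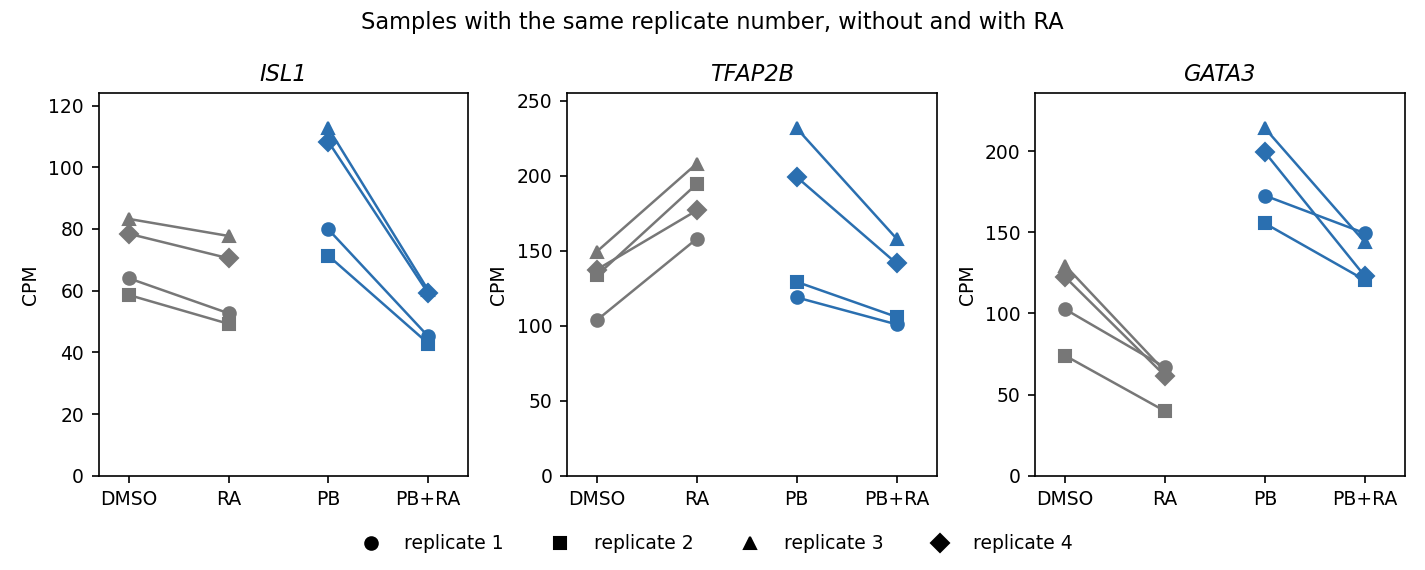
CPM (vertical axes, from 0) of ISL1, TFAP2B and GATA3, with lines joining samples of the same replicate number from DMSO to RA (grey) and from PB to PB+RA (blue). For TFAP2B the 4 grey lines rise and the 4 blue lines fall, and for ISL1 the blue lines fall by more than the grey ones.

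Over all tested genes the interaction was called for 3.44% (0.415% above and 3.02% below 0, with 5.29% passing the adjusted p alone) and for 0 of the 9 factors by edgeR without the block, with ISL1 and TFAP2B at an unadjusted p under 0.05. DESeq2 called 1 of the 9 (TFAP2B), limma-voom 0 and edgeR with the replicate block 2 (ISL1 and TFAP2B), the block also taking the calls over all genes from 530 to 1171. For the other 7 factors the interaction ranged from -0.07 (HAND1) to 0.40 (GATA3), and none of them had an unadjusted p under 0.05.

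**Figure D4:**
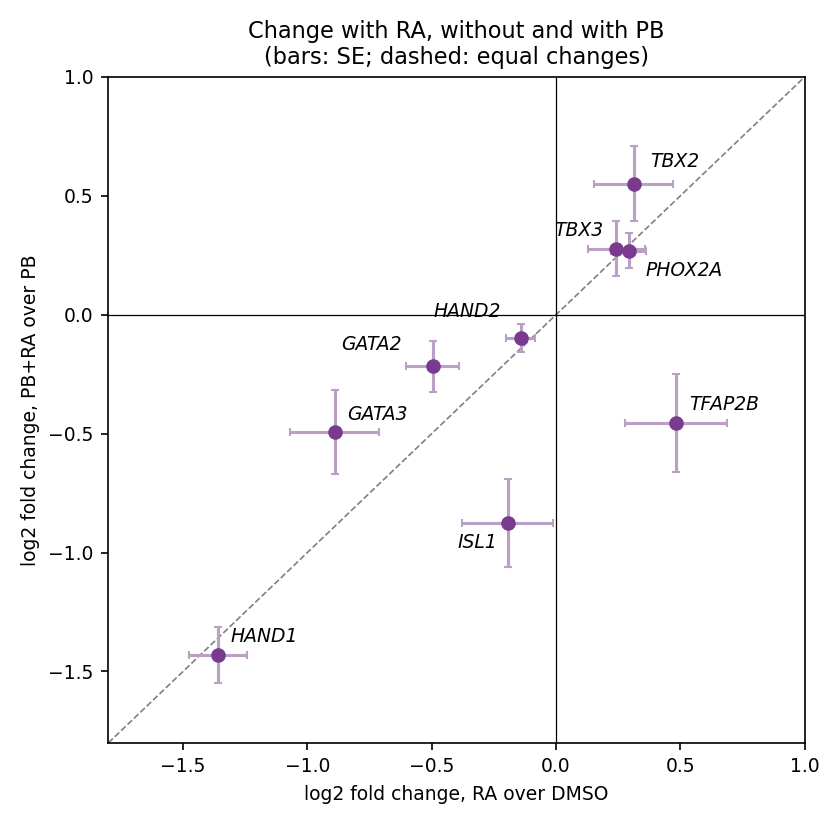
Log2 fold change of the 9 factors for RA over DMSO (horizontal axis) and for PB+RA over PB (vertical axis), with bars of 1 SE and a dashed line where both are equal. ISL1 and TFAP2B lie below the line, at -0.19 and -0.88 and at 0.48 and -0.46, while HAND1 lies next to it at -1.36 and -1.43.

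TBX2 and TBX3 are related T-box factors that act mainly as repressors. TBX3 (chr12:115108060-115121980) had 264, 215, 209 and 210.0 CPM in DMSO and 283, 232, 287 and 266 CPM in RA. It had 333, 289, 382 and 365 CPM in PB and 419, 337, 489.5 and 449.5 CPM in PB+RA. All PB and PB+RA samples lay above all DMSO and RA samples. PB raised it from 224 ± 26.5 to 342 ± 40.6 CPM (0.61 ± 0.12, adjusted p = 0.00034) and PB+RA to 424 ± 64.7 CPM (0.89 ± 0.12, adjusted p = 5.04e-06). Adding PB to RA raised it by 0.65 ± 0.12 (adjusted p = 0.000198). RA gave 0.24 ± 0.12 without PB (adjusted p = 0.116) and 0.28 ± 0.12 with it (adjusted p = 0.0699), each higher in 4 of 4 pairs. The PB change was 0.37 within replicates 1 and 2 (adjusted p = 0.101) and 0.79 within replicates 3 and 4 (adjusted p = 1.53e-09), so that the call was made in the latter alone. It was also lost under the GC and length correction with the replicate block (0.495, against 0.502 without the block).

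TBX2 (chr17:59477204-59486827) had 429, 305, 501 and 445 CPM in DMSO and 568, 381, 564 and 585 CPM in RA. It had 399, 366, 487 and 459.6 CPM in PB and 721, 534, 651 and 654 CPM in PB+RA. Replicate 2 was the lowest of its group in all 4 groups, and the PB+RA samples lay above all DMSO and PB samples. PB+RA raised TBX2 from 420.0 ± 82.6 to 639.7 ± 77.8 CPM (0.58 ± 0.16, adjusted p = 0.00452) and above PB by 0.55 ± 0.16 (adjusted p = 0.0127), whereas PB alone gave 0.03 ± 0.16 (adjusted p = 0.892) and RA alone 0.31 ± 0.16 (adjusted p = 0.138). The rise over DMSO fell below the fold minimum without DMSO replicate 2 (0.45) or PB+RA replicate 1 (0.49) and after the GC and length correction (0.35), and the rise over PB did so when PB replicate 2 (0.48) or PB+RA replicate 1 (0.49) was left out, after that correction (0.46) and with apeglm shrinkage (0.497). Neither was called within replicates 1 and 2 (0.76 and 0.71) or within replicates 3 and 4 (0.40 and 0.44). TBX3 made up 35.7% ± 5.48 of the per kb level of both genes in DMSO, 34.5% ± 2.76 in RA, 45.0% ± 0.725 with PB and 40.3% ± 2.67 with both agents.

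The partners of these factors were read from a list of 15 cofactors and antagonists, of which 14 were tested. PB+RA raised 1 of the 14 and lowered 6, with a median log2 fold change of -0.48, against 0.04 over all genes. PB lowered 2 and raised 0, and RA lowered 2 and raised 1. Of all genes, 41.9% were called with PB+RA, 28.2% with PB and 13.3% with RA. ZFPM1, a partner of GATA factors, rose with RA by 0.66 ± 0.15 (adjusted p = 0.00392) and with PB+RA by 1.37 ± 0.15 (adjusted p = 1.21e-06). Its relative ZFPM2 fell with PB+RA from 17.1 ± 8.38 to 5.40 ± 3.36 CPM, a log2 fold change of -1.68 ± 0.53 (adjusted p = 0.0113). The replicates of ZFPM2 spread widely, and its ranges overlapped (8.67 to 27.1 CPM in DMSO and 2.67 to 9.96 CPM in PB+RA). ID2, which binds E proteins and keeps them from pairing with bHLH factors, fell from 145 to 73.2 CPM under RA (-0.99 ± 0.11, adjusted p = 7.38e-06). TWIST1, a bHLH factor that can pair with HAND proteins and is also on the mesenchymal-type marker list, fell with PB to 61.9 CPM (-0.51 ± 0.18, adjusted p = 0.026). PB+RA also lowered LMO4, TCF12, TWIST1, ID2 and ID4. ID4, which PB lowered as well, was at a low level, at 2.11 CPM in DMSO, 0.76 CPM in PB and 0.78 CPM in PB+RA. Of the E protein genes TCF12 was called with PB+RA, while TCF3 (-0.49) and TCF4 (-0.48) passed the adjusted p and not the fold minimum.

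A list of 12 genes, here called noradrenergic targets, held genes of catecholamine synthesis and transport, the granins CHGA, CHGB and SCG2, and RET. Whether the 9 factors drive each of these genes was not tested. PB raised 8 of them and lowered 0 (median log2 fold change 0.98), RA raised 4 and lowered 0 (0.35) and PB+RA raised 9 and lowered 1 (0.99), where the medians over all genes were 0.03, 0.01 and 0.04 and the medians of the 9 factors 0.18, -0.14 and -0.03. Of all genes, 28.2%, 13.3% and 41.9% were called in these comparisons. SLC18A1, a vesicular monoamine transporter, rose with PB from 4.28 to 20.1 CPM, a log2 fold change of 2.24 ± 0.27 (adjusted p = 4.83e-06). PNMT, which makes adrenaline from noradrenaline, rose from 2.68 to 19.1 CPM with RA, a log2 fold change of 2.82 ± 0.28 (adjusted p = 3.98e-06), and to 33.5 CPM with PB+RA, 3.61 ± 0.29 (adjusted p = 2.44e-08). GCH1, the enzyme at the start of tetrahydrobiopterin synthesis, was the gene that fell with PB+RA, by 0.54 ± 0.08 (adjusted p = 1.09e-05) on the log2 scale. The remaining rises with PB+RA were in TH, DBH, SLC18A2, SLC6A2, CHGA, CHGB, RET and SLC18A1.

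Of 14 other regulators of the adrenergic state, PB raised 2 and lowered 1, RA raised 5 and lowered 2, and PB+RA raised 2 and lowered 2, where 28.2%, 13.3% and 41.9% of all genes were called. SATB1, a chromatin organiser, rose with PB from 19.5 to 59.4 CPM, a log2 fold change of 1.60 ± 0.12 (adjusted p = 1.62e-08), and with PB+RA to 64.6 CPM, 1.70 ± 0.12 (adjusted p = 2.16e-09). HEY1, a bHLH repressor downstream of Notch, rose under RA from 63.3 to 142 CPM, 1.16 ± 0.21 (adjusted p = 0.000733), and the homeobox gene SIX3 fell with RA to 14.7 CPM, -0.86 ± 0.12 (adjusted p = 4.06e-05). SOX11 fell with PB by 0.57 ± 0.21 (adjusted p = 0.0295) on the log2 scale and ZNF536 fell with PB+RA by 1.07 ± 0.21 (adjusted p = 0.000295). LMO1 fell with RA and with PB+RA at a low level, from 1.61 CPM in DMSO to 0.73 and 0.43 CPM. Of 12 relatives of the 9 factors in the file, 8 were under 1 CPM in every sample, among them TFAP2A and TFAP2C. GATA4 stood at 94.3 ± 7.42 CPM in DMSO, 95.1 ± 5.84 in RA, 107 ± 13.8 with PB and 119.6 ± 3.90 with both agents, and its log2 fold change of 0.32 ± 0.08 (adjusted p = 0.00213) with PB+RA was below the fold minimum. Over DMSO, GATA6 and ISL2 rose both with RA and with PB+RA, and GATA6 with PB as well. ISL2 was near the floor, at 0.46 CPM in DMSO, 1.35 CPM in RA and 0.99 CPM in PB+RA. Its PB+RA range (0.44 to 1.51 CPM) overlapped that of DMSO (0.39 to 0.57 CPM). GATA6 went with PB+RA from 2.44 to 20.5 CPM, a log2 fold change of 3.03 ± 0.27 (adjusted p = 5.96e-08).

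**Figure D5:**
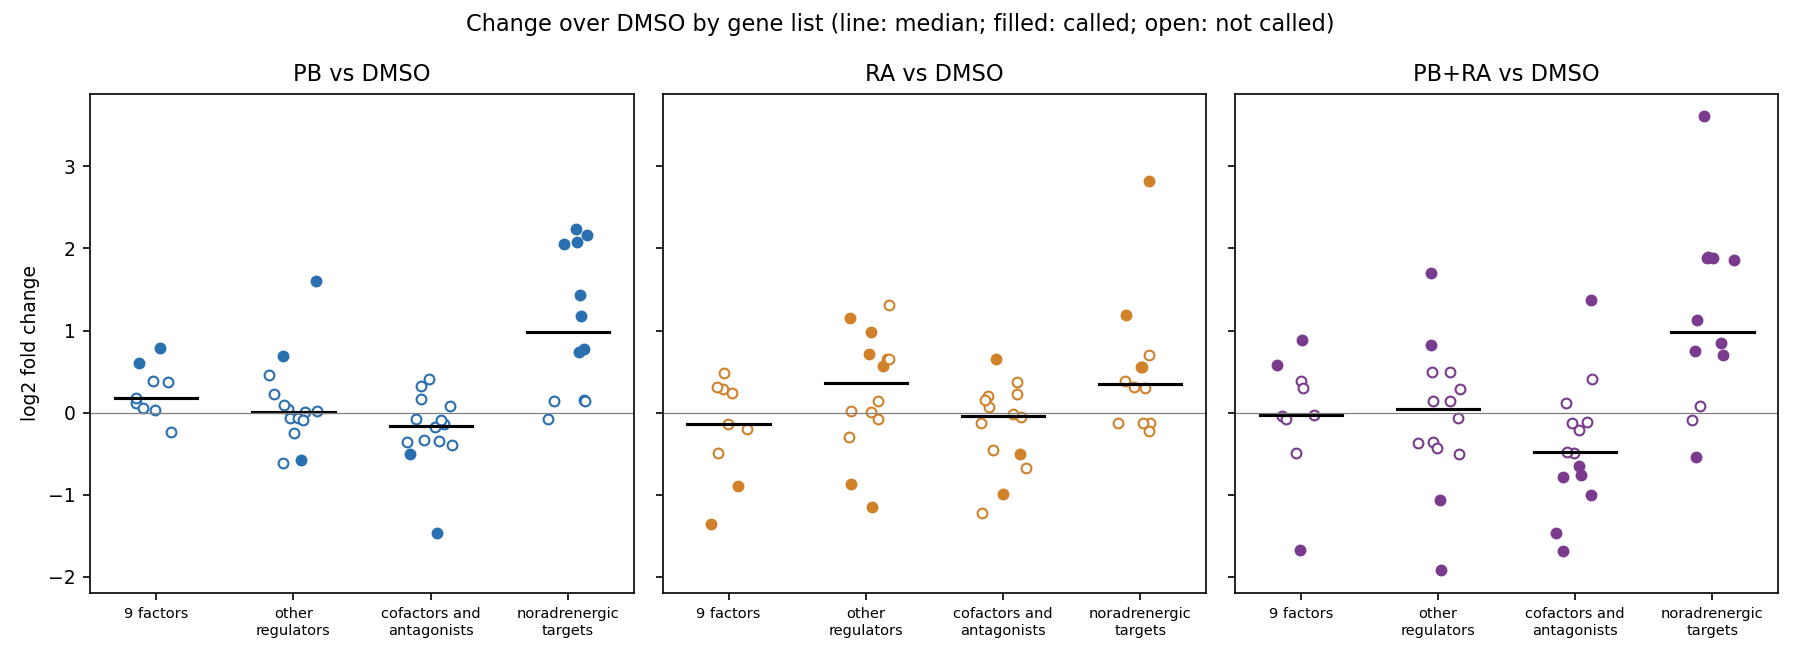
Log2 fold change over DMSO (vertical axis) with PB, RA and PB+RA of the 9 factors and of 3 lists, 14 other regulators, 14 cofactors and antagonists, and 12 noradrenergic targets, with a point per gene, filled where called, and a line at the median. The medians of the noradrenergic targets are 0.98 with PB and 0.99 with PB+RA, while those of the 9 factors are 0.18 and -0.03.

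Genes whose pattern over the 16 samples came closest to a factor were ranked by the root mean square difference of centred log2 CPM. For HAND1 they were DRD2 (0.26), PC (0.27) and EPHA5 (0.28), against a spread of 0.73 of HAND1 itself, and for GATA3 PDE1C (0.21), KIAA1614 (0.23) and LINC02593 (0.23), against 0.67. CDKAL1 was closest to ISL1 (0.10 against 0.40), KIDINS220 to TBX3 (0.11 against 0.37), IER5L to TBX2 (0.10 against 0.32) and RAC2 to TFAP2B (0.19 against 0.36). DRD2, a dopamine receptor gene, changed by -1.34 with RA and by -2.08 with PB+RA on the log2 scale, and PDE1C by 1.13 with PB and -0.93 with RA.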

How the data were processed

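RNA was prepared from SK-N-BE(2)C cells in 4 groups of 4 replicates, which the study describes as different passages plated independently, and sequenced as poly(A)-selected libraries. The authors trimmed reads with Trim Galore 0.6.4 and aligned them to hg19 with STAR 2.6.1d, which also counted reads per gene. The strand setting used for counting and the annotation release are not given in the sources used here. The authors deposited raw counts per gene for 27037 genes and CPM values, which equalled each count scaled to its sample's total within a tolerance of 1e-09. A deposited DESeq2 1.32.0 table holds the authors' log2 fold changes and adjusted p-values and was not used.

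Counts were fitted with edgeR 4.0.16 (quasi-likelihood, robust, R 4.3.3) on all 16 samples after filterByExpr (15415 genes) and TMM scaling (factors 0.983 to 1.021), with a coefficient per group. P-values were adjusted by Benjamini-Hochberg over all tested genes, and a change was called at an adjusted p below 0.05 and an absolute log2 fold change above 0.5. Each treated group was compared with DMSO, PB+RA also with each agent alone, and the interaction was tested. Samples of the same replicate number resembled each other: deviations from the group means correlated at 0.330 to 0.573 in 24 such pairs and at -0.492 to 0.447 in 72 others. Of the others, pairs within replicates 1 and 2 or within 3 and 4 had 0.155 to 0.447, and pairs across these sets -0.492 to -0.236. The main fit did not use the replicate number. Alternatives were other fold minimums, RLE scaling, other filters, the replicate block, a correction for GC content and length (splines of 5 df, 96.3% of tested genes), 2 groups only, each replicate left out, replicates 1 and 2 or 3 and 4 alone, limma-voom (limma 3.58.1) and DESeq2 1.42.0 with and without apeglm 1.24.0. The scripts were tested on simulated data.

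The members and gene lists were chosen with earlier results of these data known. All 9 factors are given in every comparison. From each list, for each comparison with DMSO, the called genes of the largest rise and largest fall with a mean of at least 10 CPM are named, and for a factor the genes of the most similar pattern. Other list genes were named after their values were seen. Exon lengths, positions and promoters (250 bases before the RefSeq start) come from the annotation of GRCh37 and the RefSeq table, in which TBX2 and TBX3 were not matched. A gene's length was that of its merged exons over all annotated transcripts, whichever of them the cells express. Ranks per kb and shares of paralogs depend on this length, and their SD covers the spread of replicates alone. TBX3-AS1, ISL1-DT, GATA1 and TBX5 were not analysed here. Depth was 19.5 to 31.6 M counts per sample.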

Additional observations from a re-analysis of the deposited data

Results flagged for a closer look

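In 3 of 36 groups of 4 samples tested, a sample stood far from the other 3 by Dixon's criterion, which chance alone meets in about 1 of 20 groups. DMSO replicate 1 was high for HAND1, at 402 CPM against 315 to 327 CPM in the other 3, and for TBX3, at 264 CPM against 209 to 215 CPM. RA replicate 2 was low for TBX2, at 381 CPM against 564 to 585 CPM.

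ISL1 and TFAP2B were flagged because same-numbered pairs moved in opposite directions with an agent in the absence and in the presence of the other. Neither interaction was called in the edgeR fit without the block. For ISL1 the interaction was -0.68 on the log2 scale, with PB higher than DMSO in 4 of 4 pairs and PB+RA lower than RA in 4 of 4 pairs. For TFAP2B it was -0.94, with RA higher than DMSO in 4 of 4 pairs and PB+RA lower than PB in 4 of 4 pairs. Both had an unadjusted p under 0.05 in the edgeR fit, with adjusted p of 0.165 for ISL1 and 0.0818 for TFAP2B.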

How the results depend on the processing

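Of the 9 factors, 2 were called for PB, 2 for RA and 3 for PB+RA over DMSO, 3 for the combination against PB, 3 for it against RA and 0 in the interaction. A log2 fold minimum of 1 gave 0, 1, 1, 1 and 1 in the first 5, and no fold minimum 4 with RA and 5 in each comparison of PB+RA. The replicate block gave 2 in the interaction and changed no other call of a member. The GC and length correction with the block gave 1 with PB, TBX3 being lost, and 2 in the interaction. Replicates 1 and 2 alone gave 0 with PB and 1 in the interaction, replicates 3 and 4 alone gave 2 in the interaction, and DESeq2 gave 1. Leaving out 1 replicate gave 2 to 3 for PB, 2 to 3 for RA, 2 to 4 for PB+RA over DMSO, 3 to 5 against PB, 2 to 4 against RA and 0 to 1 in the interaction. Counts over all genes (4352 for PB, 2053 for RA and 6455 for PB+RA over DMSO, 2511 against PB, 4469 against RA and 530 in the interaction) became 8269, 5420, 10189, 5877, 8391 and 816 with no fold minimum and 1686, 914, 3120, 1058, 1776 and 169 with a minimum of 1. The interaction gave 1171 calls with the block and 1077 with the correction as well. The cause of these differences was not tested, apart from the fold minimums and the samples left out.

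Values that changed sign had not been called. The PHOX2A interaction was 0.0082 with RLE scaling and with DESeq2 alike, 0.0214 without the filter, 0.0657 with the GC and length correction (0.0659 with the block) and 0.1024 in replicates 1 and 2, and leaving out 1 replicate gave -0.092 to 0.0343. HAND2 with PB was -0.017 under the GC and length correction (-0.0181 with the block) and -0.0076 to 0.0909 when 1 replicate was left out. The HAND1 interaction then ranged from -0.1556 to 0.0808 and GATA2 with PB+RA from -0.0944 to 0.0172, while GATA2 with PB was -0.0117 in replicates 1 and 2. TBX2 with PB was -0.0094 without the filter, -0.1163 under the correction, -0.1038 with the block added, -0.0396 in replicates 3 and 4 and -0.096 to 0.1284 with 1 replicate left out. The TBX3 interaction was -0.0414 in replicates 3 and 4 and -0.0513 to 0.1387 with 1 replicate left out. No fit with apeglm or with only the groups compared was run for the interaction.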

Other observations

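Markers of other states moved in the same samples. RA raised 5 of the 10 mesenchymal-type markers and lowered 0, among them FN1, which encodes fibronectin (log2 fold change 2.06 ± 0.27). The others named, at low levels, were NOTCH2 (2.04 ± 0.48, from 0.96 to 4.02 CPM) and the Hippo pathway effectors YAP1 (1.13 ± 0.28, from 1.35 to 2.97 CPM) and WWTR1 (0.87 ± 0.20, from 6.48 to 11.9 CPM). PB lowered 6 (PRRX2, SNAI2, TWIST1, VIM, YAP1 and WWTR1, with YAP1 at -1.27 ± 0.33) and raised CD44 (0.75 ± 0.17). Of these, PRRX2 was under 1 CPM in every sample and YAP1 stood at 0.55 CPM in PB. PB+RA raised 2 (FN1 and NOTCH2) and lowered 4. Of all genes, 13.3% were called with RA, 28.2% with PB and 41.9% with PB+RA. The chromaffin markers PNMT and SLC18A1 summed to 5.35 to 9.01 CPM in DMSO, 21.4 to 32.9 CPM in RA, 28.6 to 37.2 CPM in PB and 42.3 to 59.4 CPM in PB+RA. The 3 cholinergic markers summed to 81.1 to 159.6 CPM over all samples, with SLC5A7 under 1 CPM in every sample.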
